A study of Sus scrofa with 6 samples.

Results

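Glutathione transferases join reduced glutathione to reactive, electrophilic compounds, which marks them for export from the cell. The cytosolic enzymes fall into classes named alpha, mu, pi, omega and others, the kappa enzyme lies in mitochondria and peroxisomes, and a separate family of membrane enzymes carries the prefix MGST. Alpha class enzymes also reduce lipid hydroperoxides, and in human kidney they are known as proximal tubule proteins, whereas the pi class enzyme lies further down the nephron.

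The genes described here are GSTA1, GSTA2, GSTA4, GSTM3, GSTO1, GSTP1, GSTK1, MGST1, MGST2 and MGST3, measured in the renal medulla of pigs. The group was chosen by the low GSTA2 signal after cardiopulmonary bypass in these same arrays, so the GSTA2 difference between the groups is given as a description without a test. A gene was measured if a probe set carried its symbol alone in the array annotation, and the GSTA2 probe set was added from the study's own list of changed genes, since that annotation does not hold it. Of the 10 genes, 8 were found, on 11 probe sets, among 6766 genes named by 1 symbol on the array. GSTP1 and MGST2 had no such probe set and were not analysed here.

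The CPB group had 3 pigs that underwent 2.5 hours of cardiopulmonary bypass under general anaesthesia, and the Sham group had 3 pigs that had 2.5 hours of general anaesthesia. All were labelled White-Landrace crossbred, and the methods describe adult female Large White-Landrace crosses. Both groups underwent neck dissection and received heparin. Renal medulla was collected 24 hours after the intervention, and the RNA of each pig was hybridised to 1 Affymetrix porcine array. The samples were blocks of outer medulla, which hold many cell types. In bulk tissue, fewer cells of a type and less RNA per cell cannot be told apart.

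The values are intensities on a linear scale, normalised together by the authors with RMA, and the array medians lay between 94.25 and 96.5. Differences are CPB minus Sham means of log2 intensity, fitted with limma over 23999 probe sets, with Benjamini-Hochberg adjustment of p. The arrays did not sort by group. Sham 2 was closer to CPB 1 and CPB 3 (Spearman correlation over probe sets 0.988 and 0.982) than to Sham 1 and Sham 3 (0.938 and 0.952). CPB 2 was closer to Sham 1 and Sham 3 (0.977 and 0.961) than to CPB 1 and CPB 3 (0.942 and 0.918). The 14 measured of 25 proximal tubule markers followed the same split, with mean log2 deviations of 1.43, -1.69 and 1.58 in CPB 1 to 3 and of -2.25, 1.22 and -0.29 in Sham 1 to 3. Their summed intensity ran between 4821 and 40820 in CPB medulla and between 3521 and 35050 in Sham medulla. The mean of the 5 measured of 11 urothelium markers ran the other way, at -0.82, 0.67 and -0.88 in CPB 1 to 3 and 0.46, -0.95 and 1.53 in Sham 1 to 3. UPK1B, UPK3A and KRT19 showed this split, while UPK1A was lowest in CPB 2 (30.3) and UPK2 lay between 58.4 and 86.0. The summed intensities of the 5 were 638.3 to 2856 in CPB medulla and 472.5 to 3146 in Sham medulla. RMA intensities never reach 0, so whether a marker is absent could not be read. The reference genes ACTB and GAPDH differed by -0.04 (SE 0.22) and 0.19 (SE 0.12).

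GSTA2 is the alpha class enzyme through which the group was chosen. Its intensity was 90.1, 34.0 and 192.4 in CPB 1 to 3, against 599.8, 409.5 and 1739.4 in Sham 1 to 3. Every CPB array lay below every Sham array, and the lowest of all was CPB 2. The mean was 105.5 ± 80.3 in CPB medulla and 916.3 ± 719.2 in Sham medulla (SD, n = 3 each). The log2 difference was -3.17, or 8.98-fold lower in CPB, and 0 of the other probe sets on the array had a larger difference in size. The arrays within each group also differed widely, by 5.66-fold between the highest and the lowest CPB array and by 4.25-fold between the highest and the lowest Sham array. The spread within groups, an SD of 1.17 on the log2 scale, was larger than that of 97.8% of probe sets.

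CPB 2, which resembled Sham 1 and Sham 3 over the array as a whole, had the lowest GSTA2 value of all, and Sham 2, which resembled the other CPB arrays, stayed above all 3 CPB arrays. Without Sham 2 and CPB 2 the log2 difference was -2.96, and over the fits that left out 1 array it ran between -3.77 and -2.52. As GSTA2 was chosen by this difference and its groups did not overlap, leaving out arrays could not reverse the sign. Nothing is therefore read from these values.

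**Figure D1:**
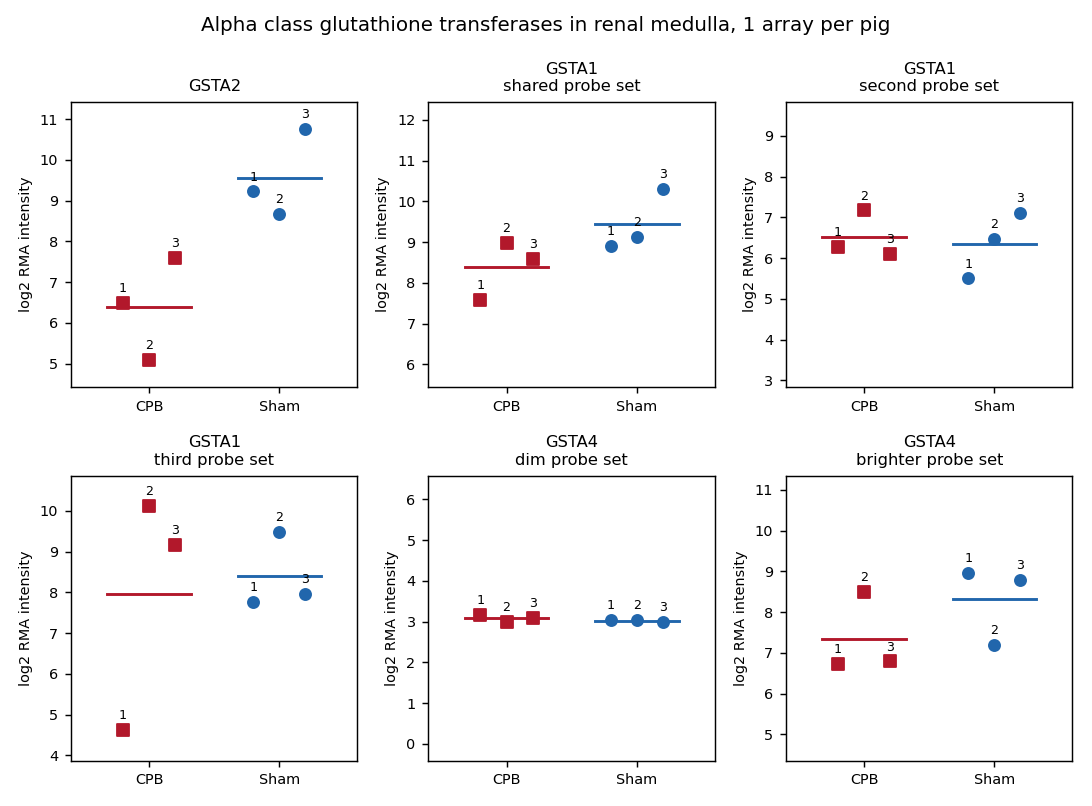
log2 of the RMA intensity of the alpha class probe sets in each array, CPB left of Sham, with the group mean of log2 values as a bar and the same span on every panel. GSTA2 lies between 34.0 and 192.4 in CPB medulla and between 409.5 and 1739.4 in Sham medulla on the linear scale, while the groups overlap on every GSTA1 and GSTA4 probe set.

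GSTA1, another alpha class enzyme, was measured by 3 probe sets, with log2 differences between -1.06 and 0.16. The first, called the shared probe set here, carries the same cluster and sub-cluster number as the GSTA2 probe set. The s in its name marks probes shared by several transcripts, and the annotation pairs it with 2 transcripts, so its signal may include GSTA2. It read 190.8, 506.1 and 385.1 in CPB 1 to 3, against 476.7, 562.7 and 1266 in Sham 1 to 3. CPB 1 and CPB 3 lay below all Sham arrays, but CPB 2 lay above Sham 1. The mean was 360.7 ± 159.1 in CPB medulla and 768.5 ± 433.1 in Sham medulla (SD, n = 3 each), a log2 difference of -1.06 (SE 0.50, 95% interval -2.29 to 0.16), with an unadjusted p of 0.0775 and an adjusted p of 0.995 from limma. It ran between -1.36 and -0.63 when 1 array was left out. This was the transferase nearest to the study's threshold from outside, an unadjusted p under 0.05 with at least a 1.6-fold difference, and GSTA2 lay inside it, as the choice of the group fixed.

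The second GSTA1 probe set, of the same cluster but another sub-cluster, gave intensities of 77.4, 144.1 and 68.4 in CPB 1 to 3, against 45.3, 88.9 and 137.4 in Sham 1 to 3. The groups overlapped fully, and the log2 difference was 0.16 (SE 0.48, 95% interval -1.01 to 1.32). The third, of another cluster, gave 24.5, 1109.8 and 571.3 in CPB 1 to 3, against 218.1, 716.4 and 248.3 in Sham 1 to 3. CPB arrays held both the lowest and the highest value on this probe set, 45.4-fold apart, while the Sham arrays lay within 3.28-fold of each other. Its SD within groups, 2.18 on the log2 scale, was larger than that of 99.8% of probe sets. The log2 difference was -0.44 (SE 1.45, 95% interval -3.99 to 3.11), although the mean on the linear scale was higher in CPB medulla (568.5 ± 542.7) than in Sham medulla (394.3 ± 279.4). The sign rested on single arrays, since the log2 difference was 1.23 without CPB 1 and 0.10 without Sham 2.

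In each array, the log2 ratio of the shared GSTA1 probe set to the second one, centred on its mean over the 6 arrays, was -1.18, -0.67 and 0.01 in CPB 1 to 3, against 0.92, 0.18 and 0.73 in Sham 1 to 3. All 3 CPB values lay below all 3 Sham values. The exact two-sided permutation p was 0.1, the smallest that 3 arrays against 3 allow, and 0.4 after adjustment over the 4 pairs of probe sets compared. The signal of the shared probe set may include GSTA2, by which the group was chosen. Comparisons with it are not free of that choice, and nothing is read from this separation. The shared probe set against the third gave a difference of -0.62 (exact permutation p = 0.7, adjusted 0.9, n = 3 each), and the second against the third gave 0.60 (exact permutation p = 0.9, adjusted 0.9, n = 3 each).

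GSTA4, which conjugates hydroxynonenal, an aldehyde formed when lipids are oxidised, lay on the same chromosome as GSTA1 in the RefSeq annotation of the pig, with 3 annotated genes between them. Its brighter probe set read 106.5, 361.1 and 110.7 in CPB 1 to 3, against 500.9, 147.6 and 441.9 in Sham 1 to 3. CPB 2 and Sham 2 each lay with the opposite group, and CPB 2 was the highest CPB array here, while for GSTA2 it was the lowest. The log2 difference was -0.98 (SE 0.66, 95% interval -2.60 to 0.64), or 1.97-fold lower in CPB, and did not pass limma's test (unadjusted p = 0.188). It ran between -1.56 and -0.66 when 1 array was left out. The other was among the dim probe sets of the array, with 9.0, 8.0 and 8.5 in CPB medulla and 8.2, 8.2 and 8.0 in Sham medulla, and differed by 0.06 (SE 0.10). The 2 probe sets differed from each other by 1.04 in their CPB minus Sham difference (exact permutation p = 0.2, adjusted 0.4, n = 3 each).

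The mu class gene GSTM3 gave intensities of 25.5, 174.6 and 65.4 in CPB 1 to 3, against 213.4, 71.1 and 115.4 in Sham 1 to 3. As with GSTA4, CPB 2 was the highest CPB array and Sham 2 the lowest Sham array. The log2 difference was -0.86 (SE 0.76, 95% interval -2.71 to 0.99), but -0.17 without CPB 1 and -1.56 without CPB 2. GSTA4 and GSTM3 thus ran against the proximal tubule markers across the arrays, whose part in these values was not tested.

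GSTO1, the omega class enzyme that reduces dehydroascorbate and methylated arsenic compounds, ran with those markers instead. Its intensity was 2406.7, 722.2 and 3894 in CPB 1 to 3, against 490.3, 4091.2 and 1144.3 in Sham 1 to 3. The 3 high arrays were CPB 1, CPB 3 and Sham 2, which are also the 3 with high proximal tubule markers. The highest and lowest arrays were 8.34-fold apart, and the log2 difference was 0.52 (SE 0.94, 95% interval -1.77 to 2.81). GSTK1, the kappa enzyme, had the same 3 arrays on top with a smaller range, at 668.8, 497.0 and 947.5 in CPB 1 to 3, against 478.5, 753.3 and 476.8 in Sham 1 to 3. It differed by 0.29 (SE 0.30, 95% interval -0.44 to 1.02). The part of proximal tubule content in both was not tested.

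**Figure D2:**
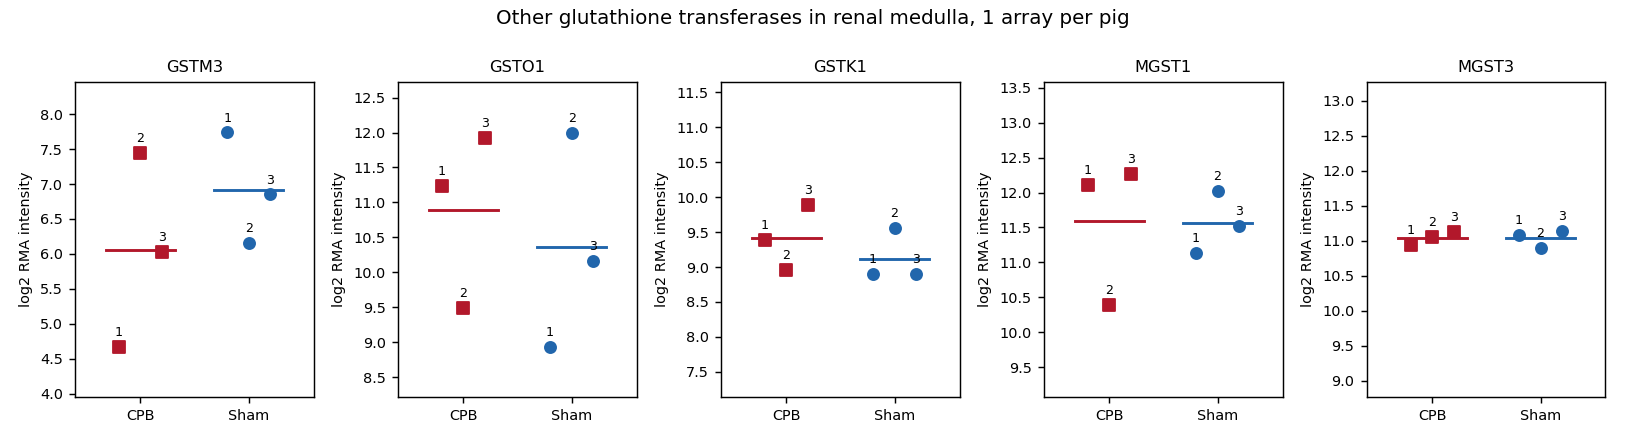
log2 of the RMA intensity of the mu, omega, kappa and membrane transferase probe sets in each array, CPB left of Sham, with the group mean of log2 values as a bar. GSTM3, GSTO1, GSTK1 and MGST1 overlap between the groups, and MGST3 lies between 1905.9 and 2250.4 on the linear scale in all 6 arrays.

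The membrane enzymes MGST1 and MGST3 act as transferases and peroxidases. MGST1 read 4434.6, 1343.6 and 4910.1 in CPB 1 to 3, against 2248.1, 4159.9 and 2945.8 in Sham 1 to 3. CPB 1, CPB 3 and Sham 2 were on top, as for GSTO1 and GSTK1, and the part of proximal tubule content was not tested. CPB 2 had the lowest value and the groups overlapped, with a log2 difference of 0.03 (SE 0.54, 95% interval -1.29 to 1.35). MGST3 was the steadiest transferase, at 1966.8, 2120.1 and 2226.9 in CPB 1 to 3, against 2161.6, 1905.9 and 2250.4 in Sham 1 to 3. Its arrays lay within 1.18-fold of each other, and its 95% interval of -0.29 to 0.29 was the narrowest apart from that of the dim GSTA4 probe set.

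Among all 11 probe sets, 1 met the study's threshold, and it was the GSTA2 probe set that led to the group, so nothing is read from that count. Over the array, 0.304% of probe sets met the threshold in either direction, and 0.217% were lower in CPB. The same 1 of 11 had no overlap between the groups, where 5.27% of all probe sets had none. Of the 10 other probe sets, 6 had a higher and 4 a lower mean in CPB, with a median log2 difference of 0.01 beside 0.03 over all probe sets. None of the 10 had an unadjusted p under 0.05 (1.4% of all probe sets did), and their adjusted p lay between 0.995 and 0.999. The 95% intervals of 8 of the 10 reached beyond 1 log2 unit, or 2-fold, in at least one direction, and those of MGST3 and the dim GSTA4 probe set did not.

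**Figure D3:**
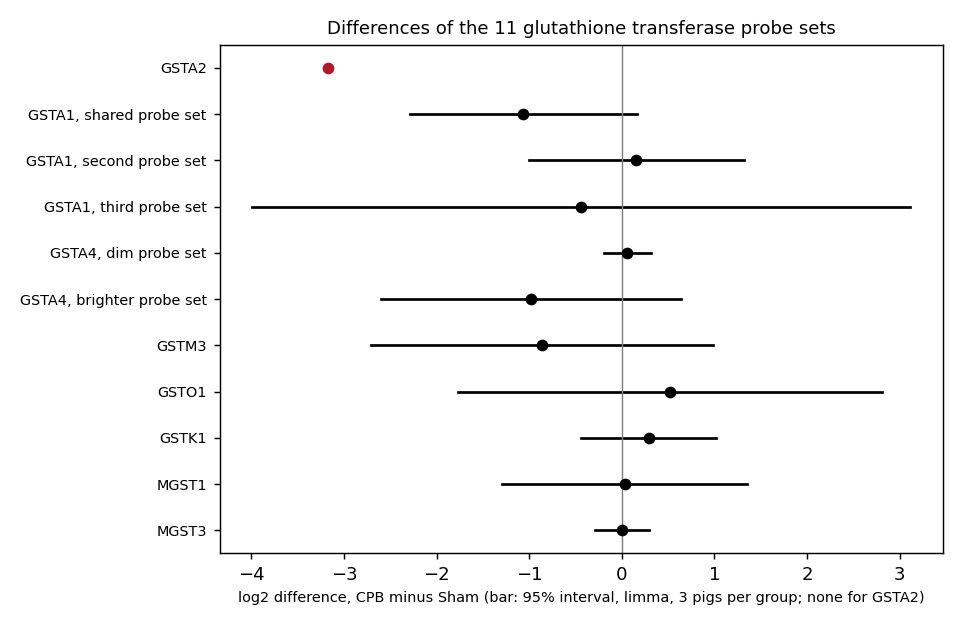
Log2 difference CPB minus Sham for each transferase probe set (point), with the 95% interval from limma (line) for all but GSTA2, whose difference chose the group. The intervals of the 10 other probe sets all cross 0, and GSTA2 is drawn at -3.17 as a description.

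To set GSTA2 against the rest of the family, the mean deviation of the 7 other genes, each on its brightest probe set, was subtracted from its own in every array. The resulting values were -1.04, -2.76 and -0.51 in CPB 1 to 3, against 1.27, 0.53 and 2.515 in Sham 1 to 3. All CPB values were negative and all Sham values positive, and the means differed by -2.87. Most of this gap is the GSTA2 difference itself, -3.17, through which the group was chosen. The separation here and in the gaps to GSTA1 probe sets is therefore a description. For GSTA1 the brightest probe set was the shared one, whose signal may include GSTA2. The mean of the 7 other genes alone was -0.44, -0.13 and 0.13 in CPB 1 to 3, against -0.01, 0.18 and 0.28 in Sham 1 to 3, a difference of -0.295 with overlapping groups. GSTA2 minus the shared GSTA1 probe set differed by -2.10 between the groups, with -0.14, -2.96 and -0.06 in CPB 1 to 3. The Sham arrays lay above these, at 1.27, 0.48 and 1.40. GSTA2 minus the third GSTA1 probe set differed by -2.73, but there CPB 1 at 2.09 lay among the Sham arrays.

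**Figure D4:**
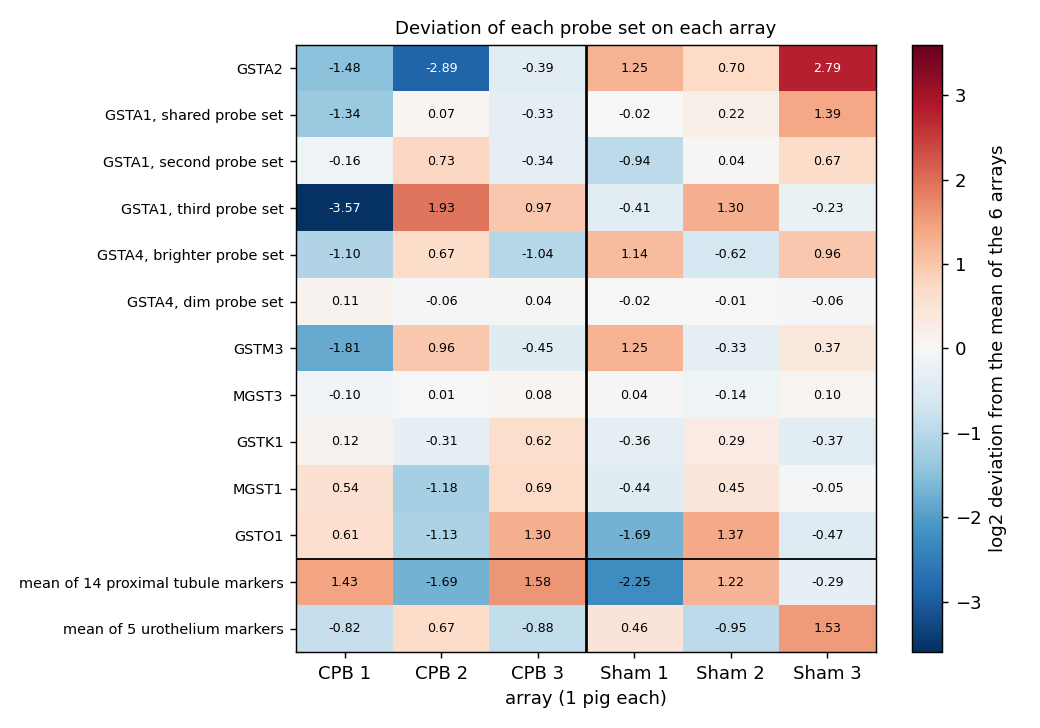
Log2 deviation of each probe set from its own mean over the 6 arrays (colour), with CPB arrays left of Sham arrays, and the mean deviation of 14 proximal tubule and 5 urothelium markers in the lowest rows. GSTA2 is low in all 3 CPB arrays, while GSTO1 is high in CPB 1, CPB 3 and Sham 2, as the proximal tubule markers are.

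Leaving out arrays changed which other transferases met the threshold. Without CPB 2, 4 of the 11 probe sets met it (2.89% of all). These were GSTA2, the shared GSTA1 probe set at -1.36, the brighter GSTA4 probe set at -1.56 and GSTM3 at -1.56. Without Sham 2, 1 did (2.92% of all). Without Sham 2 and CPB 2, 6 did, where 12.8% of all probe sets were called and 3% passed an adjusted p of 0.05. These 6 were GSTA2, the brighter GSTA4 probe set at -2.12, GSTM3 at -1.94, GSTO1 at 2.03, MGST1 at 0.86 and GSTK1 at 0.74. Of them the brighter GSTA4 probe set alone passed limma's adjusted test (adjusted p = 0.0345), while the dim GSTA4 probe set was at 0.113. Those 2 arrays were picked because they resembled the other group, which widens the differences between the arrays that are left. With weights fitted to each array, 4 met the threshold (7.12% of all), and with the replicate number as a block 2 did (0.317% of all), GSTA2 and the shared GSTA1 probe set.

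The conjugates that transferases form depend on a supply of glutathione and on enzymes and carriers that process and export them. Of 106 genes on 7 lists around this pathway, 62 were measured, each on its brightest probe set. None met the study's threshold (0.304% of all probe sets did), and 0 had an unadjusted p under 0.05 (1.4% of all), so the lists gave no call in either direction. The mean was higher in CPB for 47 of the 62 (75.8%), beside 55.9% of all probe sets. Without Sham 2 and CPB 2, 31 met the threshold, 27 higher and 4 lower in CPB, in a fit that called 12.8% of all probe sets.

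Glutathione synthesis and turnover had 11 of 18 genes measured, 10 with a higher mean in CPB, and a median log2 difference of 0.31 (0.095 to 0.69 when 1 array was left out). GGT1, which splits glutathione at the brush border, read 799.2, 140.5 and 595.8 in CPB 1 to 3, against 90.7, 370.1 and 140.9 in Sham 1 to 3, a difference of 1.27 (SE 0.80). CPB 2 lay among the Sham arrays. CNDP2, a dipeptidase that splits the cysteinylglycine left by that step, differed by 0.70 (SE 0.50), and GGT7 by 0.27 (SE 0.17). The mercapturate pathway and conjugate export list had 7 of 16 genes measured, all with a higher mean in CPB, and a median of 0.82. That median was 0.047 without Sham 1 and 1.77 without CPB 2. In it DPEP1, a brush border dipeptidase, read 1106.6, 163.6 and 1704.9 in CPB 1 to 3, against 66.5, 1098.6 and 389.4 in Sham 1 to 3, and differed by 1.15 (SE 1.28). KYAT1, a cysteine conjugate lyase, differed by 0.67 (SE 0.37), and the organic anion carrier SLC22A8 by 1.16 (SE 1.44). Several of these genes are proximal tubule genes in the mammalian kidney, and the 14 proximal tubule markers all had a higher mean in CPB too, with a median of 0.89 and 0 called. Their part in these lists was not tested.

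Glutathione peroxidases and glutaredoxins had 12 of 13 genes measured, 9 with a higher mean in CPB, and a median of 0.16. The groups did not overlap for 2 of the 12, where 5.27% of all probe sets had no overlap. GLRX5, a mitochondrial glutaredoxin of iron-sulfur cluster assembly, read 966.4, 793.5 and 982.4 in CPB 1 to 3, against 713.5, 761.1 and 378.1 in Sham 1 to 3, and differed by 0.625 (SE 0.29). GPX4, which reduces lipid hydroperoxides in membranes, read 2496, 3015.5 and 2755.1 in CPB 1 to 3, against 2464.5, 2491.8 and 2003.6 in Sham 1 to 3, and differed by 0.25 (SE 0.14). Neither passed limma's test. GPX6 had the largest difference of the list with a lower CPB mean, -1.15 (SE 0.49), with 36.0, 35.4 and 41.4 in CPB 1 to 3, against 96.8, 38.7 and 152.9 in Sham 1 to 3, where CPB 3 lay above Sham 2.

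NRF2 is a transcription factor that raises many detoxification genes, alpha class transferases among them in rodents. Of 22 genes on a list of its targets 17 were measured, with a median of 0.15 and 12 genes higher on average in CPB. HMOX1, which breaks down haem, differed by 0.63 (SE 0.44), and PGD by -0.23 (SE 0.17). The carbonyl reductase CBR1 differed by -1.19 (SE 0.85), and Sham 2 alone, at 1201.1, lay far above the other arrays (79.0 to 282.9). Glutathione-dependent aldehyde disposal had 4 of 4 genes measured, with a median of 0.13. In it ESD differed by -0.23 (SE 0.20), ADH5 by 0.16 (SE 0.17) and HAGH by 0.27 (SE 0.33). Regulators of alpha class promoters had 8 of 15 measured, with a median of 0.08. The xenobiotic receptor NR1I2 differed by 0.86 (SE 0.60), PPARA by 0.48 (SE 0.29) and NR3C1 by -0.14 (SE 0.15). A list headed other transferases had 3 of 18 genes measured, with a median of -0.32, which is the value of PTGES. Of the 3, GSTZ1 alone carries a glutathione transferase name, and its mean was higher in CPB. ALOX5AP, the membrane protein that hands arachidonic acid to lipoxygenase, differed by -0.43 (SE 0.25) and the prostaglandin E synthase PTGES by -0.32 (SE 0.33). GSTZ1, the zeta class enzyme of tyrosine breakdown, read 755, 225.1 and 958.4 in CPB 1 to 3, against 193.3, 740.1 and 266.6 in Sham 1 to 3, and differed by 0.70 (SE 0.72), the split that GSTO1 showed.

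The probe sets most like GSTA2 were ranked by Pearson's r over the 6 arrays, among 2534 with a mean above the array's median and an SD of at least 0.5 on the log2 scale. These values describe how the arrays line up, and the highest of so many are high by selection. On log2 values the nearest were RNASE4 (r = 0.93), SLA-DQA1 (0.91), CTSS (0.90), FCGR2B (0.90), TMEM87A (0.89) and MSL3 (0.88). SLA-DQA1 encodes a class II antigen-presenting chain of the pig, CTSS a lysosomal protease of antigen-presenting cells and FCGR2B an inhibitory antibody receptor. The ranking on log2 values takes in the group difference that chose GSTA2, so it favours genes with lower values in CPB. As a description, the difference of CTSS was -0.83 and that of FCGR2B was -1.34. Of the 11 measured of 15 myeloid markers, 6 had a higher and 5 a lower mean in CPB, between -0.60 for C1QC and 0.30 for ITGAM, with 0 called. Of the higher ones, ITGAM, S100A8, S100A9, CD14 and MARCO were dim, below the array medians on every array, and AIF1 differed by 0.006. The lower ones, brighter than those dim ones, were C1QC, CD163 (-0.47), FCER1G (-0.34), C1QA (-0.31) and TYROBP (-0.31). The summed intensity of the 11 markers ran between 1280 and 1577 in CPB medulla and between 1304 and 2110 in Sham medulla. The part of the myeloid markers in these values was not tested. RNASE4, a secreted ribonuclease, read 455.9, 216.8 and 402.2 in CPB 1 to 3, against 526.2, 508.7 and 800.0 in Sham 1 to 3. Its groups did not overlap either, which the ranking on log2 values also favours.

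After the group means were taken out, the nearest were WAC (r = 0.997), TMEM87A (0.996), CLDND1 (0.996), CDIPT (0.994), MSL3 (0.992) and HSP90AA1 (0.988). In all 6, CPB 3 was above CPB 1 and CPB 1 above CPB 2, and Sham 3 was above Sham 1 and Sham 1 above Sham 2, which is the order of GSTA2 within its groups. HSP90AA1, a cytosolic chaperone, read 692.5, 408.4 and 1035 in CPB 1 to 3, against 818.8, 555.9 and 1549.3 in Sham 1 to 3. Its difference between the groups was -0.42, and that of WAC was -0.25. Within the groups the other transferases were less like GSTA2, with r between -0.31 for GSTM3 and 0.595 for MGST3, and 0.25 for the shared GSTA1 probe set.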

How the data were processed

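Gene expression was measured in the renal medulla of 6 pigs, 3 CPB and 3 Sham, with 1 array per animal. Quality was checked with GCOS, and the authors ran RMA in ArrayStar, which corrects the background, equalises the arrays by quantiles and summarises each probe set by median polish. The deposited intensity values, for 24123 probe sets, are on the linear scale, as read from their size and range, and log2 was taken here. Detection calls and raw files were not used, so signal over background is not known, and precision rests on 3 arrays per group.

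The 124 control probe sets were left out, and the 23999 others were fitted with lmFit and eBayes of limma 3.58.1 (R 4.3.3), with group as the one term. A call is an unadjusted p under 0.05 with at least a 1.6-fold difference, the study's threshold. Exact permutation tests used scipy 1.17.1. Of 10297 annotated probe sets 10099 have 1 symbol and 198 have several, and no gene was named from the 198. No genome build goes with the array, so no positions are given. The RefSeq table of the pig gave only names and neighbours.

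The members and lists were chosen with earlier results of these data known. The genes named are all member probe sets and the up to 3 genes with the smallest p in each pathway list. The 6 probe sets most like GSTA2 on either measure, ACTB and GAPDH are named too. Some myeloid and urothelium markers are named besides. Over all probe sets, same-numbered arrays did not deviate together (r of their deviations -0.389, -0.681 and -0.016), so the numbers were not taken as pairs. For GSTA2 they did, with log2 deviations from the group mean of 0.104, -1.302 and 1.198 in CPB 1 to 3. Those in Sham 1 to 3 were -0.328, -0.879 and 1.208, and the cause was not tested. Alternatives included the methods' t-test, on linear values as well as log2, an intensity trend with a robust prior, array weights, a further quantile normalisation, median centring, no dim probe sets, controls kept, 16 added before log2, the replicate block, other fold minimums and each array left out. The fit without Sham 2 and CPB 2 was chosen after seeing the data. A comparison of protein sequences was not run.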

Additional observations from a re-analysis of the deposited data

How the results depend on the processing

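The GSTA2 difference kept its direction under 17 alternatives, between -3.77 and -2.52, and its gap to the other transferases did so under 10, between -3.335 and -2.21. GSTA2 was chosen by this difference, and its groups overlapped on neither measure. Leaving out arrays could therefore not reverse either sign, and nothing is read from the kept direction. The count of transferase probe sets that met the threshold was 1 (0.304% of all probe sets did). It was 6 without Sham 2 and CPB 2 (12.8% of all) and 4 with array weights (7.12% of all). With the methods' t-test on linear values it was 0, so GSTA2 itself fell outside the threshold, which 26 of all 23999 met. When 1 array was left out it was between 1 and 4 (4 without CPB 2, 2.89% of all). Of the 62 pathway genes, 31 met the threshold without Sham 2 and CPB 2, where 12.8% of all probe sets did. Between 0 and 7 met it when 1 array was left out (7 without CPB 2 and 3 without Sham 2, where 2.89% and 2.92% of all did). Over all probe sets the numbers of the arrays did not pair them, but the GSTA2 deviations within the groups followed the numbers. With the replicate number as a block, 2 transferase probe sets and 1 pathway gene, GPX6, met the threshold, where 0.317% of all probe sets did.

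Small differences changed sign, and the cause was not tested. Without Sham 2 and CPB 2, the second GSTA1 probe set was at -0.116 and MGST3 at -0.076. With array weights these were at -0.008 and -0.091. On linear values MGST3 was at -0.001 and the third GSTA1 probe set at 0.528, and after a further quantile normalisation MGST3 was at -0.05. With the most variable probe set per gene, the median of aldehyde disposal was -0.022. Leaving out 1 array, the differences ran between -0.274 and 0.527 for the second GSTA1 probe set, between -1.518 and 1.234 for the third, between -0.194 and 1.337 for GSTO1, between -0.307 and 0.628 for MGST1 and between -0.069 and 0.05 for MGST3. The medians ran between -0.047 and 0.341 for NRF2 targets and between -0.014 and 0.185 for regulators. Dim probe sets, such as the second of GSTA4, carry no order here.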
